A study of Mus musculus with 13 samples.

Results

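The genes described here are the alarmins Tslp and Il33 and the receptor genes Crlf2, Il7r and Il1rl1, measured in 4T1 mouse mammary tumours. The 5 genes were chosen by symbol, after line differences in Tslp had been seen in these same arrays. A feature of the array annotation could be assigned to 4 of them. No feature was assigned to Il1rl1, so the IL-33 receptor chain itself is not analysed here. The 4 measured genes stand among 22206 non-control features, of which 19572 carried 1 gene symbol, and each had its value on all 12 tumour arrays.

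The tumours grew in the mammary fat pad of WT BALB/c mice or of Nlrx1-/- BALB/c mice, which lack the mitochondrial NOD-like receptor NLRX1. The injected cells were parental 4T1, which was not transduced, 4T1OE, transduced to overexpress NLRX1, or 4T1OE-CTL, the transduced control line. 4T1 is a mammary carcinoma line of BALB/c origin. Each of the 6 groups of host and line held 2 Clariom S arrays, and each array was hybridised with RNA pooled from tumours, so replicates differ as pools do and not as single animals. Nothing in the labels ties a transduced line to more than 1 transduction, so a difference between lines may be one between these particular lines. The number of tumours in a pool, the age of the mice and the promoter of the transgene were not given in the sources used here. Host genotype is that of the mouse, and the same injected lines were used in both kinds of host.

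TSLP and IL-33 are alarmins, cytokines released by stressed or damaged epithelial, stromal and endothelial cells. TSLP binds CRLF2 together with the IL-7 receptor alpha chain, the product of Il7r, and signals through JAK and STAT5 proteins. IL-33 is stored in the nucleus, is cut by caspases and by mast cell and neutrophil proteases, and binds ST2, the product of Il1rl1, together with IL1RAP, to signal through MYD88 to NF-kB. Dendritic cells, mast cells, group 2 innate lymphoid cells and Th2 cells carry these receptors, and IL7R is also the receptor chain for IL-7 on most T cells.

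Nlrx1 itself lay between 9.31 and 10.67 on the 4 arrays of 4T1OE tumours and between 5.99 and 7.13 on the other 8, on the deposited log2 scale. A difference of 1 on this scale is a 2-fold difference. The label of Nlrx1-/- parental replicate 1 recommends leaving that array out after the service's principal component analysis, and its median correlation with the other arrays was 0.90, against 0.96 to 0.98 for the rest. Fitted differences therefore rest on 11 arrays, with a lone Nlrx1-/- parental array whose spread was taken to be that of the other groups. Its values are still given below. That array and the replicate 1 arrays of Nlrx1-/- 4T1OE-CTL and Nlrx1-/- 4T1OE tumours also had high B cell and lymph node genes, with median deviations of 2.14, 4.10 and 3.07 over 16 genes, against -0.30 to 0.26 on the other 9 arrays. These 3 are called the lymphoid-high arrays below. To get a list's deviation on an array, each gene's median over the 12 arrays was subtracted from its value and the median of the results was taken. Epithelial genes set parental apart from transduced tumours. Of 20 measured, 11 were lower and 0 higher in 4T1OE-CTL than parental tumours (limma, adjusted p under 0.05). Of all features 1.62% were called lower and 0.968% higher in that comparison. Epcam, an epithelial adhesion gene, ran from 12.57 to 14.95 in parental and from 6.94 to 9.81 in transduced tumours.

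Tslp had the widest range of the 4 genes across the tumours, and its line groups did not overlap. In 4T1OE-CTL tumours it read 13.64 and 12.84 in WT hosts and 12.48 and 13.08 in Nlrx1-/- hosts. In parental tumours it read 11.31 and 11.45 in WT hosts and 11.34 in the fitted Nlrx1-/- array, while the array recommended for exclusion read 10.53. In 4T1OE tumours it read 9.97 and 9.50 in WT hosts and 9.92 and 10.18 in Nlrx1-/- hosts. Every 4T1OE-CTL array was thus above every parental array, and every parental array, the doubtful one included, was above every 4T1OE array. The feature was well above background throughout, since Tslp lay 3.67 to 7.78 above the median of the negative control features of its array.

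The order of Tslp was therefore 4T1OE-CTL, parental, 4T1OE. Its mean was 13.01 ± 0.49 (SD, n = 4) in 4T1OE-CTL, 11.37 ± 0.07 (n = 3) in parental and 9.89 ± 0.29 (n = 4) in 4T1OE tumours. The fitted difference of 4T1OE minus 4T1OE-CTL was -3.12 (SE 0.25). It was -3.51 (SE 0.35) in WT hosts and -2.73 (SE 0.35) in Nlrx1-/- hosts. Tslp was higher in 4T1OE-CTL than parental tumours by 1.65 (SE 0.27), and the difference of 4T1OE minus parental was -1.47 (SE 0.27). These line differences took part in the choice of the genes and are given as a description, without a test. Of all features, 1.04% were called lower in 4T1OE minus 4T1OE-CTL, 0.968% higher in 4T1OE-CTL minus parental and 0.441% lower in 4T1OE minus parental. The comparisons of 4T1OE and of parental tumours with 4T1OE-CTL share the 4T1OE-CTL arrays, so a high level in that 1 control line enters both.

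Skeletal muscle genes also differed between arrays. Of 16 measured, all had a positive difference in 4T1OE-CTL minus parental tumours, with a median of 2.05 against 0.02 for all features. Of the 16, 1 was called higher, as were 0.968% of all features. Their deviation was 2.77 and 1.12 in WT and 0.01 and 2.96 in Nlrx1-/- 4T1OE-CTL tumours. It was 4.00 and -0.66 in WT and 0.22 and -0.42 in Nlrx1-/- 4T1OE tumours, and -0.58 to -0.13 in parental tumours. The array highest in muscle genes, WT 4T1OE replicate 1, read 9.97 for Tslp, within the range of the other 4T1OE arrays. In 4T1OE-CTL tumours Tslp read 13.64 and 13.08 on the arrays with muscle deviations of 2.77 and 2.96. It read 12.84 and 12.48 on those with 1.12 and 0.01. The part of muscle in the levels of the 4 genes was not tested.

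**Figure D1:**
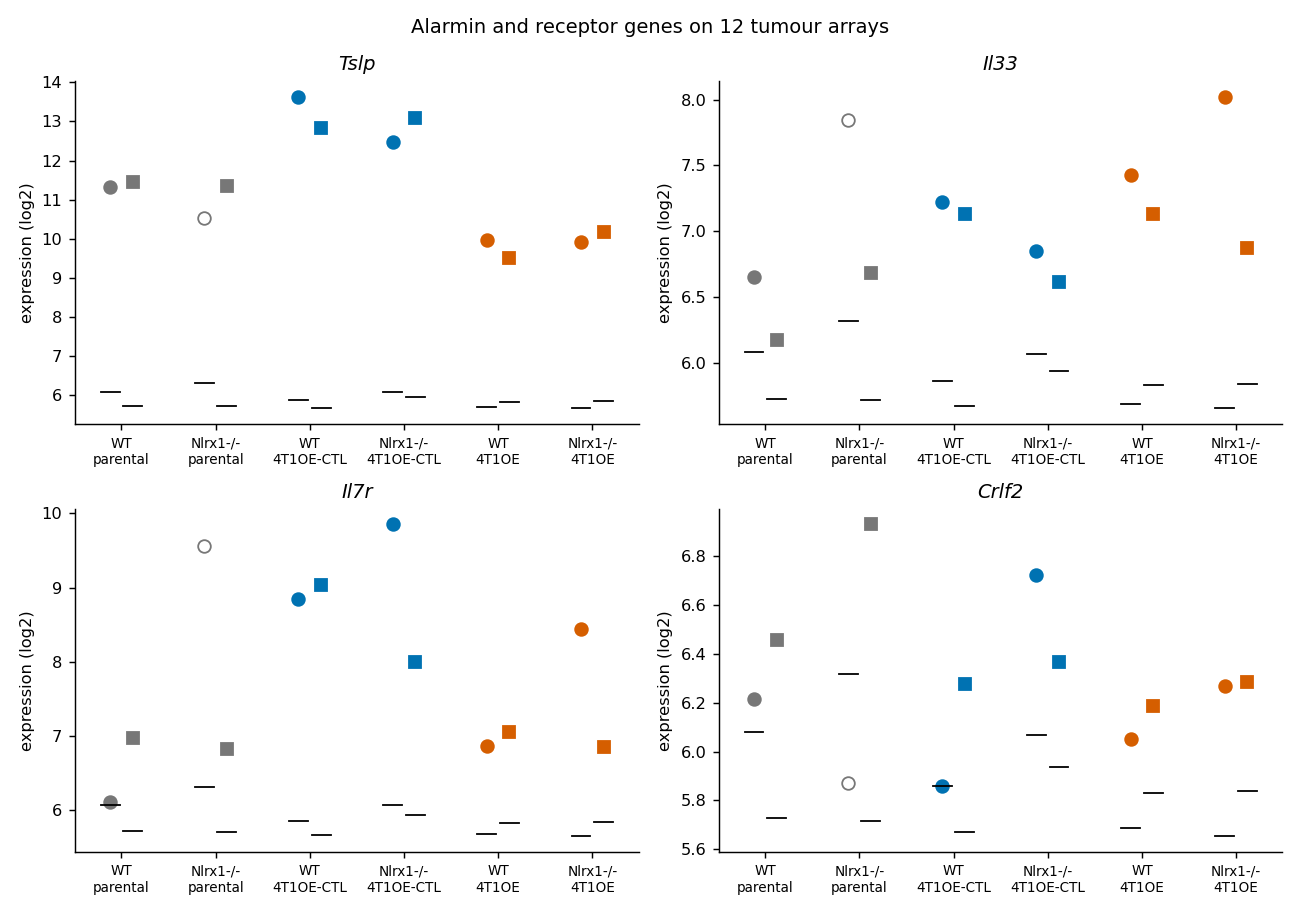
Expression (log2, as deposited) of Tslp, Il33, Il7r and Crlf2 on each of the 12 tumour arrays, by host and injected line. Circles are replicate 1, squares replicate 2, the open circle is the array recommended for exclusion, and each black dash is that array's median of the negative control features. Tslp falls into 3 separate bands by line at 12.48 to 13.64, 10.53 to 11.45 and 9.50 to 10.18, while Crlf2 stays close to the dashes.

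Genes that vary from array to array as Tslp does were found by Pearson correlation over the 11 arrays, among 10345 features with a gene symbol and a mean above the negative controls. The 5 highest were Mgst1 (r = 0.94), a microsomal glutathione transferase, Suclg2 (r = 0.94), a mitochondrial succinyl-CoA ligase subunit, Zfp395 (r = 0.94), Casp1 (r = 0.93) and Ptpn13 (r = 0.93). These arrays share lines, so the correlations largely restate the order of the lines and carry no test. Ptpn13 was dim, with a mean of 5.83 beside negative control medians of 5.65 to 6.08 on the fitted arrays. Casp1, the inflammatory caspase that processes IL-1 family cytokines, also belongs to the proteases described further on.

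Crlf2, the chain specific to the TSLP receptor, was dim. In parental tumours it read 6.21 and 6.45 in WT hosts, 6.93 in the fitted Nlrx1-/- array and 5.87 in the doubtful one. In 4T1OE-CTL tumours it read 5.86 and 6.27 in WT and 6.72 and 6.36 in Nlrx1-/- hosts, and in 4T1OE tumours 6.05 and 6.19 in WT and 6.27 and 6.28 in Nlrx1-/- hosts. The lines overlapped throughout, and the doubtful array held the second lowest value.

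On 2 of 12 arrays Crlf2 was under the median of the negative controls, and it was at most 1.21 above it elsewhere. Its differences between lines were small: -0.11 (SE 0.19) for 4T1OE minus 4T1OE-CTL, -0.29 (SE 0.20) for 4T1OE-CTL minus parental and -0.40 (SE 0.20) for 4T1OE minus parental. A line difference in the TSLP receptor chain of the size seen for Tslp was thus not measured, but so dim a feature can understate a difference. The genes most like Crlf2 over the 11 arrays were Nupr1 (r = 0.91), Fam174a (r = 0.91), Pla2g6 (r = 0.89), Mcrip1 (r = 0.88) and Dcaf8 (r = 0.86).

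Il7r, the chain that the TSLP and IL-7 receptors share, was high in the same line as Tslp but varied more within lines. In 4T1OE-CTL tumours it read 8.85 and 9.03 in WT hosts and 9.85 and 7.998 in Nlrx1-/- hosts. In 4T1OE tumours it read 6.87 and 7.06 in WT hosts and 8.44 and 6.86 in Nlrx1-/- hosts. In parental tumours it read 6.11 and 6.97 in WT hosts and 6.83 in the fitted Nlrx1-/- array, but 9.56 in the doubtful one. In WT hosts both 4T1OE-CTL arrays were above all other WT arrays. In Nlrx1-/- hosts the lines overlapped, since a 4T1OE array was above a 4T1OE-CTL array.

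The Il7r mean was 8.93 ± 0.76 (SD, n = 4) in 4T1OE-CTL, 7.31 ± 0.76 (n = 4) in 4T1OE and 6.64 ± 0.46 (n = 3) in parental tumours. Il7r was higher in 4T1OE-CTL than parental tumours by 2.24 (SE 0.46), and 4T1OE minus 4T1OE-CTL was -1.63 (SE 0.42). The 4T1OE and parental tumours were neighbours in this order, 0.62 apart (SE 0.46), and their arrays overlapped. With all 12 arrays the first difference was 1.56 and that of 4T1OE minus parental -0.06, since the doubtful array carries the second highest Il7r value. As with Tslp, these are descriptions without a test.

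Il7r moved with lymphocyte genes, though not on every array. In each Nlrx1-/- line its higher value fell on the lymphoid-high array, and the 12 measured T cell markers had deviations of 1.53, 2.74 and 1.99 on those arrays. On the other 9 arrays the T cell deviation was 0.06 to 0.49 in 4T1OE-CTL, -0.36 to -0.20 in 4T1OE and -0.55 to -0.16 in parental tumours. Cd3e, a chain of the T cell receptor complex, read 10.15, 8.90 and 8.05 on those 3 arrays and 4.60 to 7.19 on the rest. Of the rest only the WT 4T1OE-CTL arrays, at 6.40 and 7.19, were above the negative controls for Cd3e. On Nlrx1-/- 4T1OE-CTL replicate 2 Cd3e was under them, at 5.40 against 5.94, while Il7r read 7.998. The T cell markers were therefore highest in the 4T1OE-CTL line also apart from those 3 arrays. Of the T cell markers 3 of 12 were above the negative controls on all 12 arrays, and Zap70 was under them on all 12.

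Among these T cell markers 0 of 12 were called in any line comparison. Of all features, 3.69% were called higher and 1.04% lower in 4T1OE minus 4T1OE-CTL tumours. The shares were 0.968% and 1.62% in 4T1OE-CTL minus parental, and 0.887% and 0.441% in 4T1OE minus parental tumours. In 4T1OE-CTL minus parental all 12 markers had a positive difference, with a median of 1.18 against 0.02 for all features. There 6 of the 12 had an unadjusted limma p under 0.05, beside 3532 of 22206 features. Leaving out the 2 fitted lymphoid-high arrays, Il7r was higher in 4T1OE-CTL than parental tumours by 1.99 (SE 0.32), and 4T1OE minus 4T1OE-CTL was -1.70 (SE 0.32). In Nlrx1-/- hosts alone the 4T1OE minus 4T1OE-CTL difference of -1.27 (SE 0.63) depended on single arrays. It was -0.35 without replicate 1 of the Nlrx1-/- 4T1OE-CTL tumours and -2.20 without their replicate 2. In bulk tumour RNA a change in the number of cells of a type and a change in RNA per cell cannot be told apart. The part of T cells in the Il7r line differences was not tested.

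**Figure D2:**
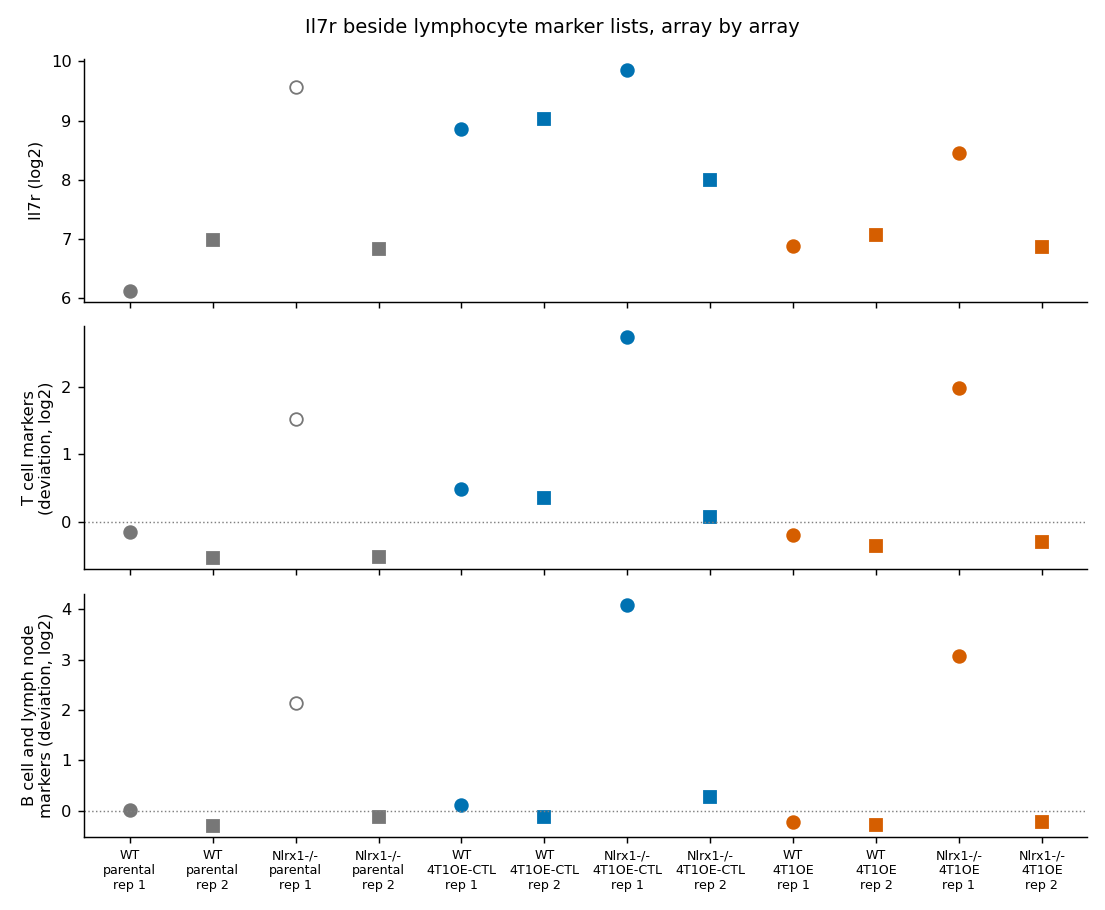
Il7r (log2) and the median deviation (log2) of 12 T cell and 16 B cell and lymph node markers on each tumour array. Circles are replicate 1, squares replicate 2 and the open circle is the array recommended for exclusion; colours mark the lines. Replicate 1 of the Nlrx1-/- tumours is high in all 3 panels in each line, at 9.56, 9.85 and 8.44 for Il7r, and the WT 4T1OE-CTL arrays are high in Il7r at 8.85 and 9.03 with lymph node deviations of 0.11 and -0.14.

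The genes most like Il7r over the 11 arrays were Xlr4b (r = 0.94), Psme2 (r = 0.92), Arhgap9 (r = 0.92), Ifit3b (r = 0.91) and Cd8a (r = 0.91). Psme2 encodes a proteasome activator subunit, Ifit3b belongs to an interferon-induced family, and Cd8a marks cytotoxic T cells. Without the 2 fitted lymphoid-high arrays these correlations were 0.84 to 0.91 over 9 arrays. With all 12 arrays they were 0.72 to 0.93. They are descriptions over arrays that share lines.

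The promoter window of Il7r is shown because a STAT-type element can be looked for there, next to a gene whose nearest neighbours in pattern include interferon-induced genes. It runs from 250 bases before to 50 bases after the start, in RefSeq's GRCm38.p6 table, at chr15:9529827-9530126 on the minus strand. It is printed 5′ to 3′ with the matched letters in capitals. An Il33 window of the same kind at chr19:29924863-29925162 on the plus strand is shown for the other alarmin axis. 
Il7r: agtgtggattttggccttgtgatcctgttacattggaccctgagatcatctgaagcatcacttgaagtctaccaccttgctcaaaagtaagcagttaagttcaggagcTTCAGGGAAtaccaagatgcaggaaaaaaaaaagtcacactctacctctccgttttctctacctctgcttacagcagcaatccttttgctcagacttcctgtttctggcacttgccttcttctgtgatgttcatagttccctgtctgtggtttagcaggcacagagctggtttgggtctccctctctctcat
Il33: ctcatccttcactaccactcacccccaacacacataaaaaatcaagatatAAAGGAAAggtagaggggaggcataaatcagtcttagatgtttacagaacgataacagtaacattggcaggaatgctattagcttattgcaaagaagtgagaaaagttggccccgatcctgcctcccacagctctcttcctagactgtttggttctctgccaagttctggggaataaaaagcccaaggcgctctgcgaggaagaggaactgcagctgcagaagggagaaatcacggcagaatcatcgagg
The capitals in Il7r, at bases 109 to 117, mark a match to TTCNNNGAA, the letters of a STAT element. The capitals in Il33, at bases 51 to 58, mark a match to AANNGAAA, the letters of an interferon regulatory factor element. Both strands were searched, and no matches overlapped another motif. Such letters are common: 8.30% of 32851 windows of 300 bases held the first and 23.9% the second. Another set of letters, GGGNNTTCC, an NF-kB-like element, was in 5.82% of windows and in neither of those printed. The Crlf2 window, with a GC content of 71.7%, and the window of another Il33 start, with 42.3%, held no match to the 3 motifs. A match is a description of the sequence and not a site shown to be used in these tumours.

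Il33 varied less than Tslp or Il7r and its lines overlapped. In 4T1OE tumours it read 7.43 and 7.13 in WT hosts and 8.02 and 6.87 in Nlrx1-/- hosts. In 4T1OE-CTL tumours it read 7.22 and 7.13 in WT hosts and 6.85 and 6.61 in Nlrx1-/- hosts. In parental tumours it read 6.65 and 6.18 in WT hosts, 6.68 in the fitted Nlrx1-/- array and 7.85 in the doubtful one. The highest and second highest values thus came from Nlrx1-/- replicate 1 arrays of 4T1OE and parental tumours, both lymphoid-high, while the lymphoid-high 4T1OE-CTL array was not high in Il33. Without the doubtful array every 4T1OE value was above every parental value.

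Il33 lay 0.45 to 2.37 above the negative controls. Its mean was 7.36 ± 0.49 (SD, n = 4) in 4T1OE, 6.95 ± 0.28 (n = 4) in 4T1OE-CTL and 6.50 ± 0.28 (n = 3) in parental tumours. The difference of 4T1OE minus parental was 0.87 (SE 0.29), and it was 0.52 with all 12 arrays. Differences between neighbours in this order were 0.41 (SE 0.26) for 4T1OE minus 4T1OE-CTL and 0.46 (SE 0.29) for 4T1OE-CTL minus parental, with overlapping arrays. Tslp was thus lowest in the line in which the Il33 mean was highest. The Il33 difference of 4T1OE minus 4T1OE-CTL was 0.10 (SE 0.38) in WT hosts and 0.72 (SE 0.38) in Nlrx1-/- hosts. In Nlrx1-/- hosts it was 0.14 without replicate 1 of the 4T1OE tumours and 1.29 without their replicate 2.

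IL-33 is made by endothelial cells and fibroblasts as well as epithelium, so their markers are given beside it. Of 13 endothelial markers 4 were higher and 0 lower in 4T1OE than 4T1OE-CTL tumours, led by Cdh5 at 2.03 (SE 0.42, limma adjusted p = 0.026). Of all features 3.69% were called higher and 1.04% lower in that comparison. Against parental tumours 0 of 13 were called in 4T1OE. Of 14 fibroblast markers 0 were higher and 5 lower in 4T1OE than parental tumours, with Lum at -2.65 (SE 0.40, limma adjusted p = 0.011). Of all features 0.887% were called higher and 0.441% lower in that comparison. The Lum call held in 19 of 20 other settings and was lost with all 12 arrays. In 4T1OE-CTL minus parental tumours 0 of 14 fibroblast markers were higher and 2 lower. These were Lum at -3.62 (SE 0.40, limma adjusted p = 0.0011) and Postn at -2.86 (SE 0.51, adjusted p = 0.014). Of 13 endothelial markers 0 were higher and 1 lower there, Cdh5 at -2.10 (SE 0.46, limma adjusted p = 0.035). Of all features 0.968% were called higher and 1.62% lower in that comparison. The Lum and Cdh5 calls there were lost with all 12 arrays. The endothelial deviation ran from -0.04 to 0.85 in 4T1OE, -0.61 to 0.06 in 4T1OE-CTL and -0.81 to 1.03 in parental tumours. The fibroblast deviation ran from -0.53 to -0.11 in 4T1OE, -0.11 to 0.22 in 4T1OE-CTL and -0.40 to 0.85 in parental tumours. Tek and Sox17 among the endothelial markers and Pi16 among the fibroblast markers were under the negative controls on all 12 arrays. The part of these cells in the Il33 levels was not tested.

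The genes most like Il33 over the 11 arrays were Dctn5 (r = 0.87), Sec23b (r = 0.86), Tlr9 (r = 0.85), Tgm1 (r = 0.84) and Sik3 (r = 0.84). With the doubtful array included these became 0.36, 0.15, 0.67, 0.87 and -0.01, so for Dctn5, Sec23b and Sik3 the likeness rested on leaving that array out. Tlr9 was dim, with a mean of 5.91 beside negative control medians of 5.65 to 6.08 on the fitted arrays.

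The host genotype was not used to choose the genes, and its effect was tested. Averaged over lines, Nlrx1-/- minus WT was -0.07 for Tslp (95% confidence interval -0.54 to 0.41), -0.03 for Il33 (-0.53 to 0.47), 0.32 for Il7r (-0.47 to 1.11) and 0.39 for Crlf2 (0.03 to 0.74). None of the 4 passed limma's test with Benjamini-Hochberg adjustment over all features (adjusted p = 1.00 for each), and 0% of all features did, against 955 features at an unadjusted p under 0.05. Crlf2 had an unadjusted limma p of 0.034, and its Nlrx1-/- mean was above its WT mean in all 3 lines on the 11 arrays. The doubtful array, an Nlrx1-/- one, was below all other Nlrx1-/- arrays for Crlf2, and the difference with it was 0.23. These intervals leave room for host differences of up to about 0.5 in Tslp and Il33 in either direction.

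Within lines the host difference of Tslp was -0.05 (SE 0.43) in parental, -0.46 (SE 0.35) in 4T1OE-CTL and 0.32 (SE 0.35) in 4T1OE tumours. For Il7r it was 0.28, -0.02 and 0.69 in the same order, for Il33 0.27, -0.44 and 0.17, and for Crlf2 0.59, 0.48 and 0.16. None passed the adjusted limma threshold, and 0% of all features passed in parental, 0% in 4T1OE-CTL and 0% in 4T1OE tumours. At an unadjusted p under 0.05 there were 1044, 2121 and 194 features. Without the 2 fitted lymphoid-high arrays, Nlrx1-/- minus WT turned to -0.25 for Il7r.

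Whether the difference between 4T1OE and 4T1OE-CTL tumours differed between hosts was tested as an interaction. The Tslp difference was less negative in Nlrx1-/- than in WT hosts by 0.78 (SE 0.49, 95% confidence interval -0.32 to 1.88, limma adjusted p = 0.999). The interaction was 0.70 (SE 0.89) for Il7r, 0.61 (SE 0.53) for Il33 and -0.32 (SE 0.38) for Crlf2, each with an adjusted limma p of 0.999. Over all features 0% passed, and 726 had an unadjusted p under 0.05. A host effect on the line difference was thus not detected, and the intervals do not exclude one of more than 1 log2 unit for Tslp.

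**Figure D3:**
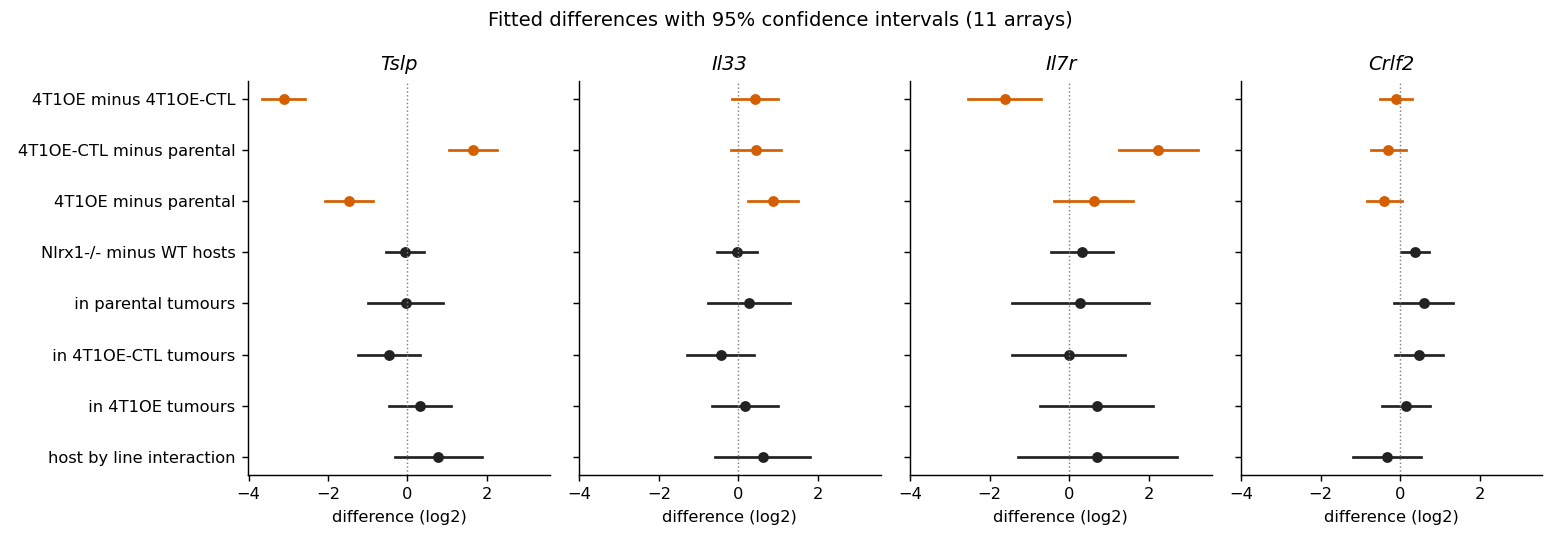
Fitted log2 differences (points) with 95% confidence intervals (lines) for Tslp, Il33, Il7r and Crlf2 on 11 arrays. Orange marks the line comparisons, given as a description, and black the host comparisons and the interaction, which were tested. The intervals of the host comparisons and of the interaction span 0, other than Crlf2 averaged over lines at 0.03 to 0.74, and the Tslp difference of 4T1OE minus 4T1OE-CTL stands at -3.12.

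The other genes of the pathways were taken from 6 lists of signalling partners, other alarmins, proteases, Tslp regulators and type 2 effectors, of which 107 of 120 genes were measured. These lists and the marker lists were chosen with earlier results of these data known. Their calls in line comparisons therefore describe these arrays and are not independent tests. For 4T1OE minus 4T1OE-CTL, 4 of 107 rose and 4 fell, against 3.69% of all features called higher and 1.04% called lower. Both directions together were 7.48% of the 107 genes, beside 1051 of 22206 features. For 4T1OE-CTL minus parental, 3 rose and 1 fell, against 0.968% higher and 1.62% lower. Together these were 3.74% of the 107 genes, beside 575 of 22206 features. For 4T1OE minus parental, 1 rose and 2 fell, against 0.887% higher and 0.441% lower. Together these were 2.80% of the 107 genes, beside 295 of 22206 features. For Nlrx1-/- minus WT, 0 of 107 were called. The median difference over the 107 genes was -0.01, 0.15 and 0.27 for the 3 line comparisons and -0.05, 0.02 and -0.03 over all features. The first of these counts was not stable, being 0 with all 12 arrays, 0 with the array standard deviation in the model and 1 without the 2 fitted lymphoid-high arrays.

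In the list of TSLP and IL-7 signalling, 0 of 16 genes rose and 1 fell in 4T1OE relative to 4T1OE-CTL tumours. There 3.69% of all features were called higher and 1.04% lower. The gene that fell was Jak2, a kinase that TSLP and many other cytokines use, at 12.04 ± 0.35 against 13.73 ± 0.31 (SD, n = 4 each). Its difference was -1.70 (SE 0.26, limma adjusted p = 0.011), and it was -1.32 (SE 0.29, adjusted p = 0.049) relative to parental tumours. The second call held in 3 of 20 other settings and was lost with all 12 arrays, and the first held in 17 but was also lost with all 12. Il7, the other ligand of IL7R, was above the negative controls on 2 arrays only, both of 4T1OE tumours in WT hosts, at 6.44 and 6.57. Il2rg, Jak3 and Lyn had no assigned feature.

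In the list of IL-33 signalling, 1 of 19 genes rose and 0 fell in 4T1OE relative to 4T1OE-CTL tumours. There 3.69% of all features were called higher and 1.04% lower. Rela, an NF-kB subunit downstream of MYD88, rose by 0.93 (SE 0.21, limma adjusted p = 0.033), from 12.62 ± 0.18 to 13.54 ± 0.34 (SD, n = 4 each). The Rela call held in 9 of 20 other settings. It was lost with all 12 arrays, with quantile normalization and without the 2 fitted lymphoid-high arrays. Tab3, an adaptor of the TAK1 kinase, fell by 1.74 (SE 0.40, adjusted p = 0.043) in 4T1OE-CTL relative to parental tumours, a call that held in 8 of 20 other settings and was lost with all 12 arrays. Il1rap, the partner of ST2, was called in no line comparison, with means of 8.90 ± 0.57 in 4T1OE, 8.48 ± 0.99 in 4T1OE-CTL (n = 4 each) and 7.08 ± 1.53 (n = 3) in parental tumours. Irak1, Irak4, Chuk and Nfkb1 had no assigned feature.

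Of 17 other alarmins and receptors, Il1r1 rose and Il18bp fell in 4T1OE relative to 4T1OE-CTL tumours. There 3.69% of all features were called higher and 1.04% lower. Il1r1, the signalling receptor for IL-1, rose by 1.24 (SE 0.25, limma adjusted p = 0.022) and was also higher than in parental tumours, by 1.30 (SE 0.27, adjusted p = 0.041). Of 20 other settings the first Il1r1 call held in 10 and the second in 8. Il18bp, the secreted inhibitor of IL-18, fell by 1.01 (SE 0.23, adjusted p = 0.034) and was higher in 4T1OE-CTL than parental tumours by 1.75 (SE 0.25, adjusted p = 0.0042). The fall of Il18bp was called in 11 of 20 other settings, and not with all 12 arrays. The epithelial alarmin Il25 and its receptor chain Il17rb were under the negative controls on all 12 arrays, as was Csf2.

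Among 14 proteases that act on IL-33 or are close to those that do, Casp1 and Gzmb were called in 2 line comparisons each. In 4T1OE minus 4T1OE-CTL both fell, as 1.04% of all features did. In 4T1OE-CTL minus parental tumours both rose, as 0.968% of all features did. Casp1 read 12.23 to 12.96 in 4T1OE-CTL, 11.43 to 11.71 on the fitted parental arrays and 10.69 to 11.13 in 4T1OE tumours, and 10.23 on the doubtful array. Without the doubtful array its lines did not overlap and stood in the order of Tslp. Casp1 fell by 1.60 (SE 0.18, limma adjusted p = 0.0042) in 4T1OE relative to 4T1OE-CTL tumours and rose by 1.03 (SE 0.20, adjusted p = 0.019) in 4T1OE-CTL relative to parental tumours. These calls held in 18 and 17 of 20 other settings, and both were lost with all 12 arrays.

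Gzmb, the granzyme of cytotoxic lymphocytes, read 9.81 to 12.31 in 4T1OE-CTL, 7.04 to 8.74 in 4T1OE and 5.74 to 7.13 in parental tumours. It rose by 4.31 (SE 0.55, adjusted p = 0.0020) in 4T1OE-CTL relative to parental tumours and fell by 2.55 (SE 0.51, adjusted p = 0.022) in 4T1OE relative to 4T1OE-CTL tumours. The fall of Gzmb was called in 13 of 20 other settings, and not with all 12 arrays. The neutrophil proteases Elane and Prtn3 were under the negative controls on all 12 arrays.

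Of 19 genes known to regulate Tslp, 2 rose and 0 fell in 4T1OE relative to 4T1OE-CTL tumours. There 3.69% of all features were called higher and 1.04% lower. Rxra, the retinoid X receptor through which the vitamin D and retinoic acid receptors act, rose by 0.75 (SE 0.18, limma adjusted p = 0.037). Notch2, a Notch receptor, rose by 1.02 (SE 0.26, adjusted p = 0.045). Of 20 other settings the Rxra call held in 6 and the Notch2 call in 5. Both calls were lost with all 12 arrays, with the array standard deviation in the model and without the 2 fitted lymphoid-high arrays. Neither gene was called in the other 2 line comparisons.

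**Figure D4:**
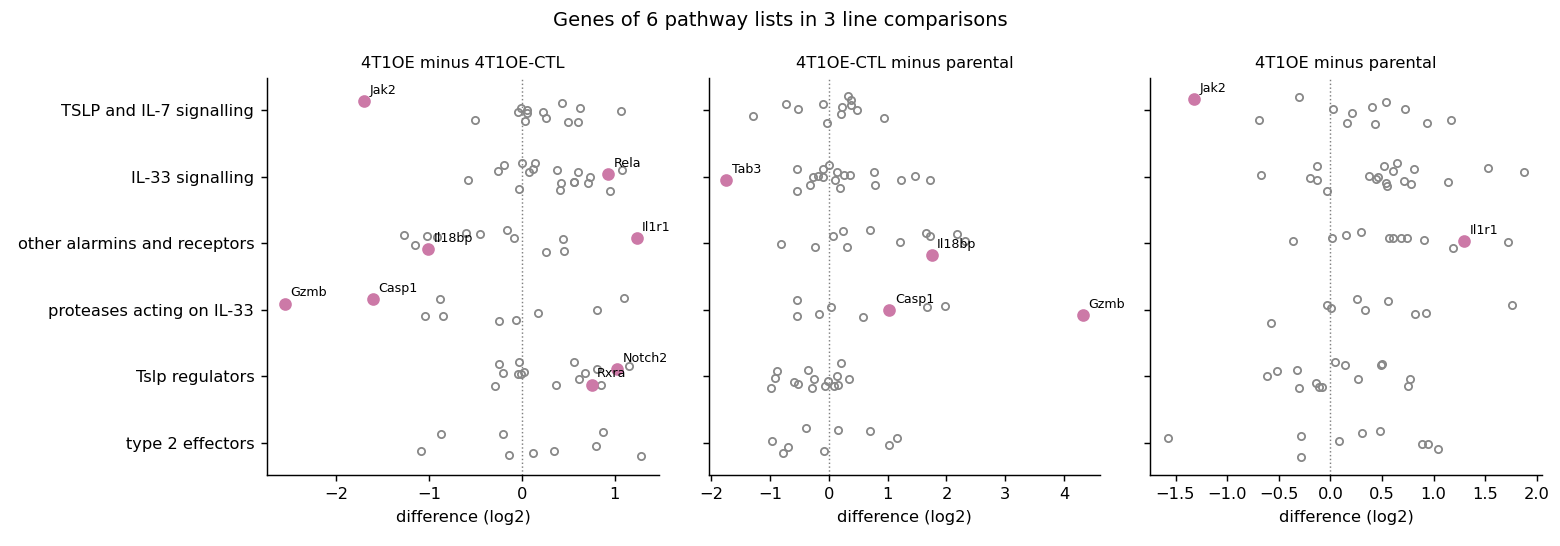
Fitted log2 differences of the measured genes of 6 pathway lists in the 3 line comparisons, 1 circle for each gene. Filled and named circles passed limma's adjusted threshold, and genes under the negative controls on every array of a side (26, 31 and 32 of 107 in the 3 panels) are not drawn. Gzmb stands at -2.55, Casp1 at -1.60 and Jak2 at -1.70 in the first panel, and Gzmb at 4.31 in the second.

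Of 22 measured type 2 effector genes, which act downstream of the alarmins, 9 were under the negative controls on all 12 arrays and 6 were above them on all 12. Among the 9 were the cytokines Il4, Il5, Il9 and Il13. In the comparisons of 4T1OE or parental tumours with 4T1OE-CTL tumours 0 of 22 were called. Alox15 alone was called in 4T1OE minus parental tumours, as lower, where 0.441% of all features were. It was under the negative controls on every 4T1OE array. Its mean on the fitted parental arrays, 5.49 ± 1.11 (SD, n = 3), was also under their negative control medians of 5.72 to 6.08. No size can therefore be given. The call held in 8 of 19 other settings and was lost with all 12 arrays. Of 10 markers of group 2 innate lymphoid cells and Th2 cells 6 were under the negative controls on all 12 arrays, including Il17rb and Ptgdr2. The 1 that was called was Hpgds, a prostaglandin D synthase also made by macrophages. It was higher in 4T1OE than 4T1OE-CTL tumours, where 3.69% of all features were, by 2.00 (SE 0.41, limma adjusted p = 0.025). This call held in 11 of 20 other settings and was lost with all 12 arrays, with the array standard deviation in the model and without the 2 fitted lymphoid-high arrays. In 4T1OE minus 4T1OE-CTL 2 of the 10 markers had a positive difference. Their median was -0.37, against -0.05 for all features.

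Markers of other cells that carry these receptors were counted in the same way. Among 14 mast cell markers, the proteases Mcpt1 and Mcpt2 fell in 4T1OE relative to 4T1OE-CTL tumours, where 1.04% of all features did. Mcpt1 fell by 2.75 (SE 0.63, limma adjusted p = 0.034). Of 20 other settings, the call of Mcpt1 held in 8 and that of Mcpt2 in 7, and both were lost with all 12 arrays, with the array standard deviation in the model and with quantile normalization. Mcpt1 was at least 2.72 higher in 4T1OE-CTL than parental tumours, a bound against the negative controls, since it was under them on all fitted parental arrays. The mast cell deviation was -0.19 to -0.10 in parental, -0.20 to 0.28 in 4T1OE and 0.02 to 1.18 in 4T1OE-CTL tumours. Ms4a2, the beta chain of the high-affinity IgE receptor, was under the negative controls on all 12 arrays.

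Of 18 dendritic cell markers 1 was higher in 4T1OE than 4T1OE-CTL tumours, where 3.69% of all features were. This was Mgl2, a lectin of dendritic cells and macrophages, at 2.09 (SE 0.27, limma adjusted p = 0.0043). Of 14 macrophage markers 6 were higher and 0 lower in that comparison, with Folr2 at 3.14 (SE 0.43, adjusted p = 0.0062) and Csf1r at 2.32 (SE 0.38, adjusted p = 0.013). None of the 6 macrophage and 4 endothelial calls of 4T1OE against 4T1OE-CTL held without the 2 fitted lymphoid-high arrays or with the array standard deviation in the model. The macrophage deviation was 0.37 to 0.71 in 4T1OE, -1.63 to -0.04 in 4T1OE-CTL and -1.87 to 0.23 in parental tumours. Of the 18 dendritic cell markers 5 were under the negative controls on all 12 arrays and 6 were above them on all 12. Among the 5 were Flt3 and Zbtb46, defining genes of conventional dendritic cells. In 4T1OE minus parental tumours 2 of the 18 were called higher, as were 0.887% of all features. These were Mgl2 at 2.20 (SE 0.29, limma adjusted p = 0.0063) and Itgax at 1.64 (SE 0.31, adjusted p = 0.027). Of 20 other settings the Mgl2 call held in 20 and the Itgax call in 11. The part of any of these cells in the Tslp, Il33 or receptor levels was not tested.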

How the data were processed

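The 5 genes and all gene lists were chosen with earlier results of these data known. The deposited table held a log2 value for each transcript cluster on each array. The Transcriptome Analysis Console is named, without a version, per the submitters' processing notes; background correction, normalization and genome build were not given in the sources used here. All log2 values were kept as the authors deposited them. Array medians ran from 5.89 to 6.25 and standard deviations from 2.53 to 3.12, so arrays were not on 1 common distribution. The manufacturer's control array was not used.

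Of 28846 features 6640 controls were removed. Genes were named through the platform annotation, and a gene with several features took the one with the highest mean. Of 294 listed genes in 19 lists (6 pathway lists, 13 marker lists) 268 had a feature. The negative control level was each array's median of features with the prefix MG-1. limma 3.58.1 (lmFit, eBayes) under R 4.3.3 gave two-sided tests, adjusted by Benjamini-Hochberg over 22206 features at a threshold of 0.05. An additive model of host and line gave averaged differences, and a model with 1 mean per group gave those within a line or host and the interaction. Named list genes are those called, with receptor partners and ligands; Epcam, Cd3e, the genes under background and the values of Casp1 and Gzmb by array were chosen after values were seen. A bound replaced the difference where every array of 1 side lay under the negative controls. P-values measure the spread between pools. The scripts were tested on simulated data. The main fits did not pair arrays by replicate number. Differences of replicate 1 minus replicate 2 correlated at -0.31 to 0.37 over 10 pairs of groups, above 0.1 in 2, with Nlrx1-/- parental left out. These pairs mix the hosts, so they cannot exclude a pattern by replicate number in Nlrx1-/- hosts. There replicate 1 was lymphoid-high in every line. Of 66 pairs of arrays 0 were identical.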

Additional observations from a re-analysis of the deposited data

Results flagged for a closer look

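In parental tumours the lowest Tslp value, 10.53 on the array recommended for exclusion, lay apart from the other 3, at 11.31 to 11.45. The gap was 0.85 of the group's range, above Dixon's limit for 4 samples. In 4T1OE tumours the highest Il7r value, 8.44 on Nlrx1-/- replicate 1, lay apart from the other 3, at 6.86 to 7.06, with a gap of 0.87 of the range. That array was also lymphoid-high. Chance alone sets apart about 1 in 20 such groups, and 12 gene and line groups were looked at.

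For Il33 the host difference ran in opposite directions on the 11 arrays in 4T1OE-CTL and parental tumours. Both Nlrx1-/- 4T1OE-CTL arrays, at 6.85 and 6.61, were below both WT arrays, at 7.22 and 7.13, and the Nlrx1-/- parental array, at 6.68, was above both WT arrays, at 6.65 and 6.18. The difference between the host differences was -0.71 (SE 0.59) and did not pass limma's test (adjusted p = 0.77). This interaction was added after the data were seen.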

How the results depend on the processing

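Each difference was refitted under up to 20 other settings. The Tslp difference of 4T1OE minus 4T1OE-CTL stayed negative in all 20, from -3.46 to -2.89, and that of 4T1OE-CTL minus parental positive, from 1.40 to 1.85. Host differences and interactions of the 4 genes passed the adjusted threshold under none. With the standard deviation of each array as a covariate, 4T1OE minus 4T1OE-CTL was -2.52 for Il7r, -0.35 for Crlf2 and, in Nlrx1-/- hosts, -2.09 for Tslp, -2.73 for Il7r and -0.77 for Crlf2; in WT hosts it was -0.18 for Crlf2. With all 12 arrays as well as the covariate, a setting chosen after seeing the data, it was -0.45 for Crlf2 (-0.19 in WT and -0.80 in Nlrx1-/- hosts) and 1.19 for Il33 in Nlrx1-/- hosts. Without the 2 fitted lymphoid-high arrays the last was 0.26. Quantile normalization gave -3.21 for Tslp in Nlrx1-/- hosts. With all 12 arrays Crlf2 was -0.063 for 4T1OE-CTL minus parental and -0.17 for 4T1OE minus parental. Leaving out each array in turn, 4T1OE minus 4T1OE-CTL ran from -3.90 to -3.11 for Tslp and from -0.15 to 0.26 for Crlf2 in WT hosts, and from -2.20 to -0.35 for Il7r and from 0.14 to 1.29 for Il33 in Nlrx1-/- hosts. The cause of these shifts was not tested.

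Pathway genes called, by comparison, were less stable. For 4T1OE minus 4T1OE-CTL (8 called) there were 0 with all 12 arrays, 0 with the covariate, 1 without the 2 fitted lymphoid-high arrays, 3 with all 12 arrays and the covariate, and 2 to 13 leaving out each array, the highest without WT 4T1OE-CTL replicate 2. For 4T1OE-CTL minus parental (4 called) the counts were 2, 4, 7, 8 and 2 to 8. For 4T1OE minus parental (3 called) they were 1, 0, 0, 1 and 0 to 3, and 1 with quantile normalization or 1 mean per group. Gzmb and Il18bp in 4T1OE-CTL minus parental were called under all 20. With the replicate number as a block, 7, 4 and 3 pathway genes were called in the 3 comparisons, Tslp was -3.12 for 4T1OE minus 4T1OE-CTL, and no host call of the 4 genes changed. Crlf2 close to the negative controls, 2 arrays per group and pooled RNA limit what can be seen.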
